A study of Mus musculus with 6 samples.

Results

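The D-type cyclins, their kinases, the inhibitors of those kinases and members of the retinoblastoma family were followed in activated mouse regulatory T cells. The 10 genes were Ccnd1, Ccnd2, Ccnd3, Cdk4, Cdk6, Cdkn1b, Cdkn2c, Cdkn2d, Rb1 and Rbl1, found by symbol through their Ensembl gene IDs among 47069 genes listed in both deposited tables. All 10 had values in all 6 libraries. In every fit 9 of them passed the filter of a mean of at least 1 FPKM (fragments per kilobase of gene, which the authors scaled to each library's size), and 1, Ccnd1, did not.

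The cells were CD4 T cells of the regulatory lineage, which the factor Foxp3 specifies, sorted as CD4+GFP+CD62Lhigh from lymph nodes and spleen to a purity above 90% per the labels. Before RNA sequencing they were activated with Dynabeads for 72 h or 48 h. The groups were Foxp3Cre Noc4l fl/fl (cKO, conditional knockout) and Foxp3Cre Noc4l +/fl (Het), and both carried a Cre recombinase driven by Foxp3, which acts in Foxp3-expressing cells. The cKO group had 2 libraries at 72 h (replicates 2 and 4) and 1 at 48 h (replicate 2), and the Het group had 2 at 72 h (replicates 1 and 3) and 1 at 48 h (replicate 1). One passage of the labels gives both groups the same allele pair, so each library's genotype was taken from its own genotype label. Replicates 2 and 1 stood in one deposited table and replicates 4 and 3 in another, so genotypes were compared within a table, as pairs of replicates. Means and SDs over both tables describe levels only, as do statements that both libraries of a group lay above or below both of the other. Whether each library is a separate animal or a pool is not stated in the labels. The p-values thus describe variation among libraries, 4 in the 72 h genotype fit and 6 in the other fits. The tests, made in limma, draw part of each gene's spread from the other genes tested.

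D-type cyclins are made when a T cell receives activating and growth signals, and they bind and activate CDK4 and CDK6. The active kinases phosphorylate the RB proteins, which otherwise hold E2F transcription factors inactive, and this lets the cell pass from G1 into S phase. INK4 inhibitors bind CDK4 and CDK6 themselves, whereas KIP inhibitors bind cyclin-kinase complexes and restrain cyclin E-CDK2 most. In T cells p27, the product of Cdkn1b, is high at rest and is lowered on activation.

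Estimated depth was 16.5 to 28.8 M fragments per library. Noc4l, the targeted gene, stood at 81.7 and 58.1 FPKM in the 72 h libraries labelled cKO, against 48.8 and 40.8 FPKM in the Het libraries. At 48 h Noc4l stood at 124 FPKM in the library labelled cKO and 99.1 FPKM in the Het library. In all 3 pairs the library labelled cKO had the higher value, which goes against that label, so those libraries are named by their label throughout, and every direction below follows the labels. Which exons are floxed is not stated in the labels, so gene-level FPKM may include exons outside the deleted part. Foxp3 was between 147 and 336 FPKM in the 6 libraries, and all 7 regulatory T cell markers were above 1 FPKM in each. The 8 neutrophil and myeloid markers summed to 366 FPKM (72 h) and 427 FPKM (48 h) in the libraries labelled cKO of replicate 2, where none was at 0. Their sum was 75.4 FPKM in replicate 4 labelled cKO and 21.5 to 44.0 FPKM in the 3 Het libraries. Nearly all of these lower sums was the marker Ltf, at 75.3 FPKM in replicate 4 labelled cKO and 21.4 to 43.5 FPKM in the Het libraries. In bulk RNA, fewer cells of a type and less RNA per cell cannot be told apart.

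More Ccnd2 and less Ccnd3 was found at 72 h in each library labelled cKO than in the Het library of the same table. The libraries labelled cKO also held less of the 3 CDK inhibitors among these genes, Cdkn1b, Cdkn2c and Cdkn2d. Cdk4 and Rb1 differed in opposite directions in the 2 pairs. At 48 h none of the 9 tested genes differed by 1.5-fold or more between genotypes, against 5.06% of 12394 genes. Neither the 72 h difference nor any other comparison of these genes passed an adjusted p of 0.05.

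**Figure D1:**
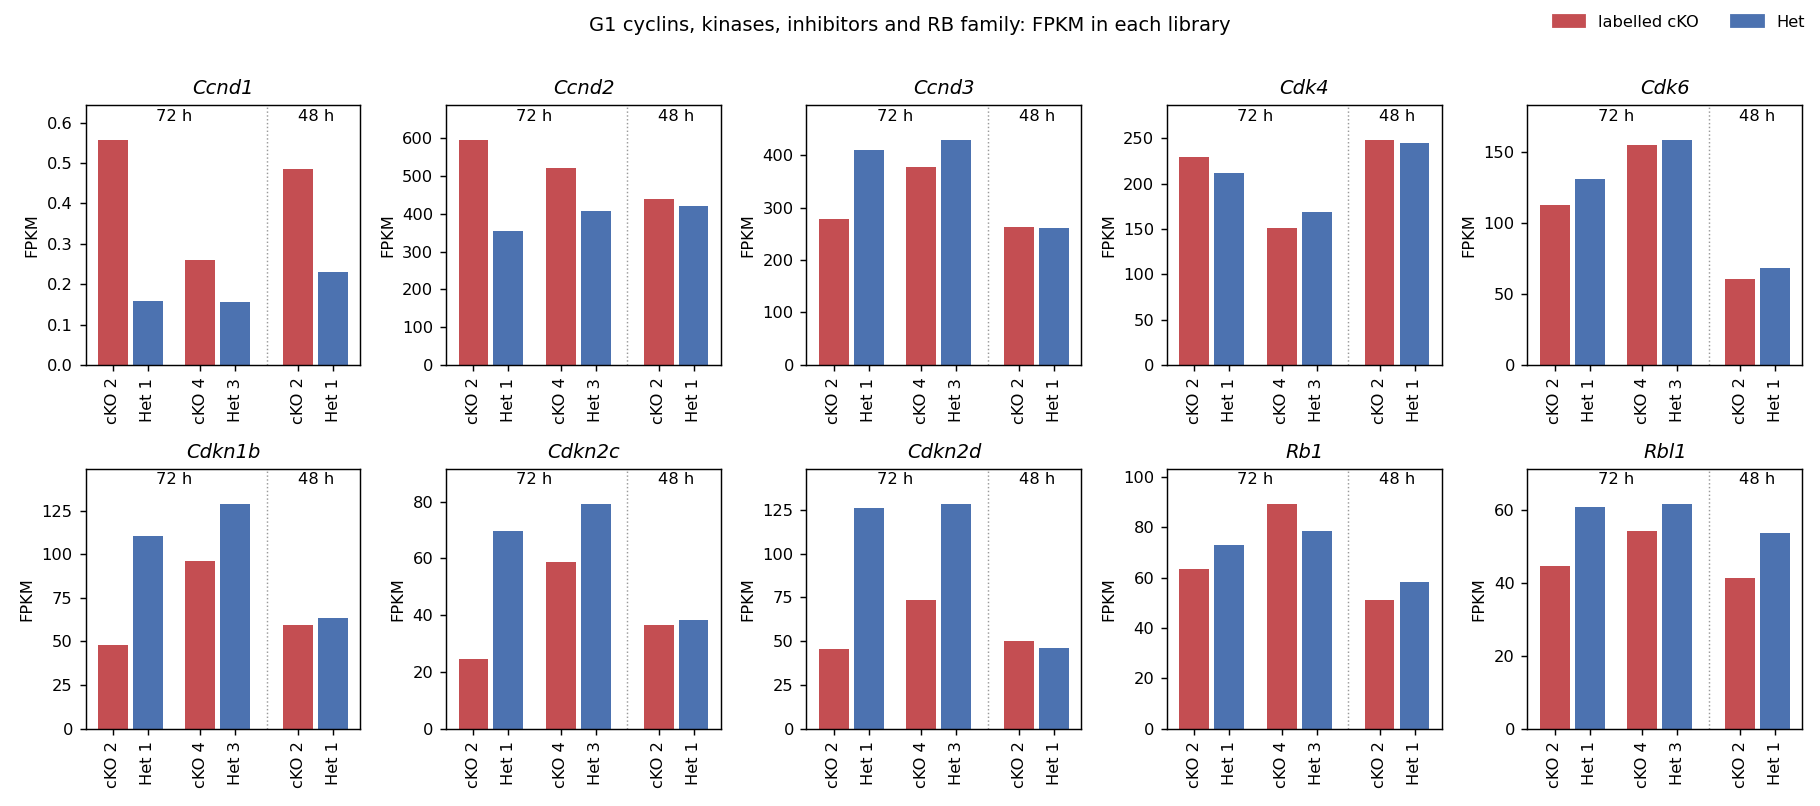
FPKM of the 10 genes in each of the 6 libraries, with libraries labelled cKO in red to the left of the Het library of the same table in blue, and 72 h left of 48 h. Cdkn1b, Cdkn2c and Cdkn2d were lower in the library labelled cKO in both 72 h pairs, where Cdkn2d was at 45.3 and 73.7 FPKM in the libraries labelled cKO against 126 and 129 FPKM in the Het libraries.

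Ccnd2, a D-type cyclin induced by mitogens and cytokines, was the most abundant of the 10 genes in every library labelled cKO and in the Het library at 48 h. At 72 h it stood at 595 FPKM in replicate 2 and 521 FPKM in replicate 4 labelled cKO, against 355 FPKM in Het replicate 1 and 409 FPKM in Het replicate 3. Both libraries labelled cKO were above both Het libraries, a separation that 24.9% of 12488 genes showed and, of the 9 tested genes, Ccnd2 alone. This separation also sets libraries of different tables side by side. The mean was 558 ± 52.5 FPKM in the libraries labelled cKO and 382 ± 37.98 FPKM in the Het libraries (SD, n = 2 each). On the log2(FPKM + 1) scale the difference was 0.55 ± 0.16 (SE), with an unadjusted p of 0.0260 and an adjusted p of 0.236 in limma. At 48 h Ccnd2 was at 439 FPKM in the library labelled cKO and 419.9 FPKM in the Het library, a fold of 1.04.

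Ccnd3, the D-type cyclin that developing lymphocytes depend on for their proliferation, went the other way. Values at 72 h were 278 and 377 FPKM in the libraries labelled cKO (replicates 2 and 4), against 411 and 429 FPKM in the Het libraries (replicates 1 and 3). The 2 Het libraries lay close together and above both libraries labelled cKO. The log2 difference was -0.37 ± 0.15, with an adjusted p of 0.322 in limma. The 48 h libraries were nearly equal, at 264 FPKM in the library labelled cKO and 262 FPKM in the Het library.

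Because FPKM is per length, the D-type cyclins were set side by side. The annotation that gave the lengths is not stated, so how far levels of different genes compare was not checked. Ccnd2 made up 68.1% and 58.0% of the summed D-type cyclin FPKM in the 72 h libraries labelled cKO, against 46.3% and 48.8% in the Het libraries. Ccnd2 was thus the larger of the pair in the libraries labelled cKO and Ccnd3 the larger in the Het libraries at 72 h. The mean share of Ccnd2 was 63.1% ± 7.16 in the libraries labelled cKO and 47.6% ± 1.73 in the Het libraries (SD, n = 2 each), a difference of 15.5 percentage points. Within the tables the difference was 21.8 points for replicates 2 and 1 and 9.20 points for replicates 4 and 3, and with 2 libraries a group no exact test was made. The share at 48 h was 62.4% in the library labelled cKO and 61.6% in the Het library. The D-type cyclins summed to 874 and 899 FPKM in the 72 h libraries labelled cKO, against 766 and 838 FPKM in the Het libraries. At 48 h the sum was 703 FPKM in the library labelled cKO and 682 FPKM in the Het library.

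Ccnd1, the D-type cyclin of most non-lymphoid tissues, was near the floor of detection in all libraries. It was listed at 0.557 and 0.260 FPKM in the 72 h libraries labelled cKO, against 0.159 and 0.156 FPKM in the Het libraries. At 48 h the library labelled cKO had 0.485 FPKM and the Het library 0.231 FPKM. These values stood for an estimated 28 and 9 fragments in the 72 h libraries labelled cKO and 7 and 8 fragments in the Het libraries, and at 48 h for 23 fragments in the library labelled cKO and 14 in the Het library. The 95% Poisson intervals, which cover counting error only, ran from 0.370 to 0.805 FPKM in replicate 2 labelled cKO and from 0.0639 to 0.327 FPKM in Het replicate 1 at 72 h. In the other 72 h pair they overlapped, at 0.119 to 0.493 FPKM in the library labelled cKO and 0.0675 to 0.308 FPKM in the Het library. The 2 libraries with the highest Ccnd1 were also those with the highest neutrophil and myeloid marker sums, and the part of those cells in the Ccnd1 values was not tested. The annotation places 1100 exon bases of Ccnd1 over the gene LTO1 on the other strand, which had 15.1 to 20.8 FPKM, and without a stated strand setting their fragments cannot be told apart.

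**Figure D2:**
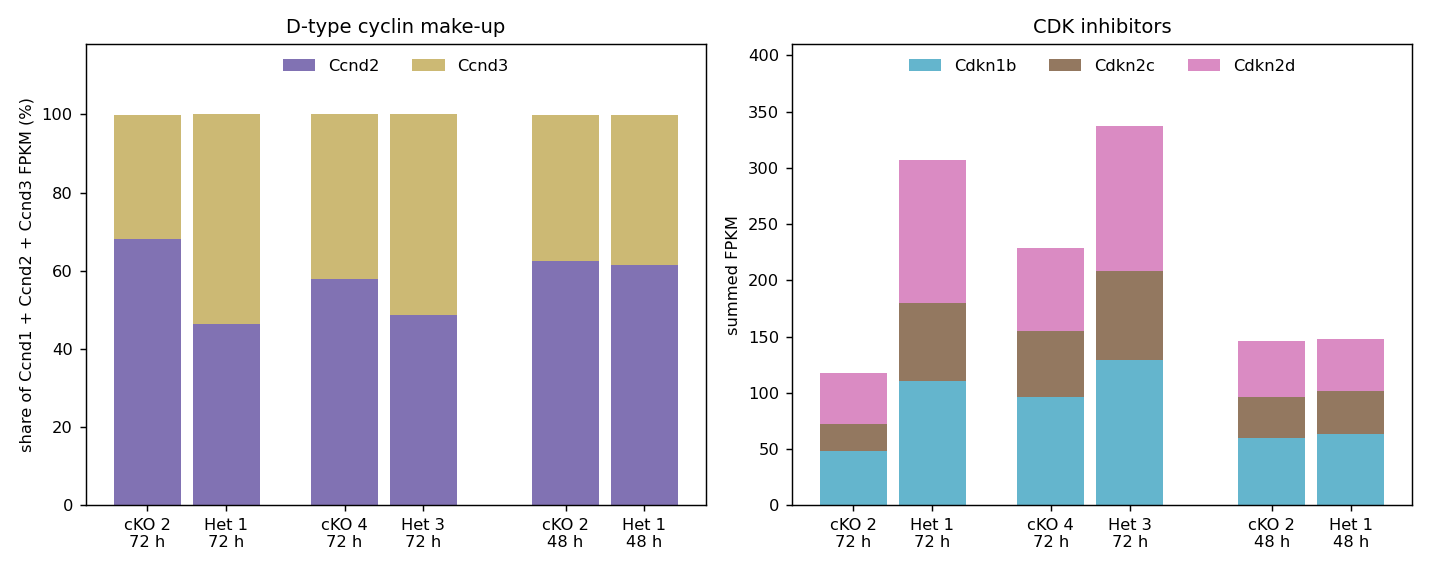
Left, share of the summed D-type cyclin FPKM made up by Ccnd2 and Ccnd3 (%), and right, summed FPKM of Cdkn1b, Cdkn2c and Cdkn2d, in each library, labelled cKO left of Het. At 72 h Ccnd2 held 68.1% and 58.0% in the libraries labelled cKO and 46.3% and 48.8% in the Het libraries, and the inhibitors summed to 117.9 and 229 FPKM in the libraries labelled cKO against 307 and 337 FPKM in the Het libraries.

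Among the kinases, Cdk4 showed no shared direction between genotypes, and Cdk6 was higher at 72 h than at 48 h in both. Cdk4 stood at 229.5 and 151 FPKM in the 72 h libraries labelled cKO, against 212 and 169 FPKM in the Het libraries. Its pair differences had opposite signs, 0.11 for replicates 2 and 1 and -0.16 for replicates 4 and 3 on the log2 scale. The 72 h difference was -0.02 ± 0.14, with an adjusted p of 0.944 in limma, and at 48 h Cdk4 was at 248 FPKM in the library labelled cKO and 245 FPKM in the Het library. Cdk6 was at 113 and 155 FPKM in the 72 h libraries labelled cKO, against 131 and 158 FPKM in the Het libraries. The libraries labelled cKO were lower in both tables, but the gap between tables was wider than that between genotypes, and the groups overlapped. The log2 difference was -0.12 ± 0.13, with an adjusted p of 0.644 in limma. At 48 h Cdk6 was at 60.2 FPKM in the library labelled cKO and 67.9 FPKM in the Het library. Cdk6 made up 33.0% and 50.6% of the summed Cdk4 and Cdk6 FPKM in the 72 h libraries labelled cKO and 38.2% and 48.4% in the Het libraries, against 19.5% in the library labelled cKO and 21.7% in the Het library at 48 h. The sum itself stayed between 306 and 343 FPKM in all 6 libraries.

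The Cdk4 promoter is printed because it was the one among the windows of these genes with repeated E boxes, the element bound by Myc and related factors. Promoter sequences here are the 250 bases before the RefSeq start (GRCm38.p6), read 5′ to 3′ on the gene's strand, and coordinates are of that build, not of mm9, the build named by the submitters. For Cdk4 the window is chr10:127063285-127063534 on the plus strand, and capitals mark 4 E boxes (CACGTG) and 1 GC box (CCGCCC, the reverse complement of GGGCGG). An E box was present in 6.02% of 32851 promoters of the same length, and 4 or more in 0.0213%.
Cdk4: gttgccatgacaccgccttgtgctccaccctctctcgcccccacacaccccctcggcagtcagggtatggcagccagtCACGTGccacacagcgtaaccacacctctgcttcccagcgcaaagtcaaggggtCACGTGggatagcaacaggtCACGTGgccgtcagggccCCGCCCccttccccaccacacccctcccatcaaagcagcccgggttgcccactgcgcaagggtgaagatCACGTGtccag

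On the log2(FPKM + 1) scale the inhibitors had the widest genotype differences of the 9 tested genes at 72 h. Cdkn1b, which encodes p27, stood at 48.1 and 96.5 FPKM in the libraries labelled cKO, against 111 and 129 FPKM in the Het libraries. Cdkn2c, which encodes the INK4 inhibitor p18, was at 24.5 and 58.7 FPKM in the libraries labelled cKO and 69.6 and 79.3 FPKM in the Het libraries. For Cdkn2d, which encodes the INK4 inhibitor p19, the values were 45.3 and 73.7 FPKM in the libraries labelled cKO and 126 and 129 FPKM in the Het libraries. For each inhibitor both libraries labelled cKO were below both Het libraries, as they were for 5 of the 9 tested genes (also Ccnd3 and Rbl1) and 13.8% of 12488 genes. Replicate 2 labelled cKO was the lowest of the 4 by a wide margin. As for Ccnd2, this separation also sets libraries of different tables side by side.

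In the pair of replicates 2 and 1, Cdkn1b was 2.30-fold, Cdkn2c 2.84-fold and Cdkn2d 2.79-fold lower in the library labelled cKO. In the pair of replicates 4 and 3 they were 1.34-fold, 1.35-fold and 1.74-fold lower. The log2 differences of the 72 h fit were -0.80 ± 0.23 for Cdkn1b, -0.95 ± 0.29 for Cdkn2c and -1.13 ± 0.21 for Cdkn2d. Their unadjusted p-values were 0.0262, 0.0325 and 0.0060, and their adjusted p-values 0.237, 0.253 and 0.158 in limma, so none passed the threshold. Cdkn2d averaged 59.5 ± 20.1 FPKM in the libraries labelled cKO and 127 ± 1.60 FPKM in the Het libraries, which gave nearly the same value (SD, n = 2 each).

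At 48 h the inhibitors were much closer between genotypes. Cdkn1b stood at 59.6 FPKM in the library labelled cKO and 63.6 FPKM in the Het library, and Cdkn2c at 36.6 FPKM in the library labelled cKO and 38.4 FPKM in the Het library. Cdkn2d was at 50.2 FPKM in the library labelled cKO and 46.2 FPKM in the Het library, the single inhibitor that was higher in the library labelled cKO there. No test can be made with 1 library a genotype.

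Summed over the 3 inhibitors, the 72 h libraries labelled cKO held 117.9 and 229 FPKM, against 307 and 337 FPKM in the Het libraries. Set against the summed kinases, this was 34.4 and 74.8 inhibitor FPKM per 100 FPKM of Cdk4 and Cdk6 in the libraries labelled cKO and 89.4 and 103 in the Het libraries. At 48 h the ratio was 47.5 in the library labelled cKO and 47.3 in the Het library. For these 3 inhibitors, the library labelled cKO of replicate 2 at 72 h had the lowest ratio of the 6 libraries, and the Het libraries at 72 h had the highest. The sum and the ratio leave out a further CDK inhibitor, Cdkn1a, which went the other way. Cdkn1a was at 271 and 201 FPKM in the 72 h libraries labelled cKO, against 134 and 74.9 FPKM in the Het libraries. A sum that includes Cdkn1a was not made, so the ratio does not describe all CDK inhibitors. The neutrophil and myeloid marker sum was 366 FPKM in the 72 h library labelled cKO of replicate 2, against 38.5 FPKM in Het replicate 1. Its 5 B cell markers summed to 83.6 FPKM and its 5 CD8 T and NK cell markers to 74.4 FPKM, against 12.4 and 36.8 FPKM in Het replicate 1, and their part was not tested. In the pair of replicates 4 and 3, 6 of the 8 neutrophil and myeloid markers were at 0 in each library, S100a8 and S100a9 among them. No annotated gene overlaps Cdkn1b, Cdkn2c or Cdkn2d.

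The promoters of the inhibitors are printed because the 3 genes differed in the same direction at 72 h. Motifs searched on both strands were the GC box (GGGCGG, bound by SP1), the CCAAT box (CCAAT, bound by NF-Y), the E box (CACGTG), a forkhead element (GTAAACA, bound by FOXO factors) and 4 forms of the E2F element (TTTGGCGC, TTTCCCGC, TTTCGCGC and TTTGCCGC). No matches overlapped. Capitals mark the matches: 2 CCAAT boxes and 1 GC box in Cdkn1b (chr6:134920151-134920400, plus strand), 3 GC boxes in one of the 2 RefSeq windows of Cdkn2c (chr4:109666757-109667006, minus strand), and 3 GC boxes and 1 reversed CCAAT box, ATTGG, in Cdkn2d (chr9:21291210-21291459, minus strand).
Cdkn1b: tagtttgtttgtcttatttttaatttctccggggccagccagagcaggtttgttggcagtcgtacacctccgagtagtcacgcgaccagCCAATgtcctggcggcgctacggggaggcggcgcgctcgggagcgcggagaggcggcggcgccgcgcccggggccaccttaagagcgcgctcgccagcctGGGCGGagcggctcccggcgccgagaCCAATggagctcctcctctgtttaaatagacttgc
Cdkn2c: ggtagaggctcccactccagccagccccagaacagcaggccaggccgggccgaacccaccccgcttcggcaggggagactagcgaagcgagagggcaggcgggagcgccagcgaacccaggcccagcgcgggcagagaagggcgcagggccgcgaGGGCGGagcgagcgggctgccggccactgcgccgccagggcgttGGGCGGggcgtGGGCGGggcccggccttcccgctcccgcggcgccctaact
Cdkn2d: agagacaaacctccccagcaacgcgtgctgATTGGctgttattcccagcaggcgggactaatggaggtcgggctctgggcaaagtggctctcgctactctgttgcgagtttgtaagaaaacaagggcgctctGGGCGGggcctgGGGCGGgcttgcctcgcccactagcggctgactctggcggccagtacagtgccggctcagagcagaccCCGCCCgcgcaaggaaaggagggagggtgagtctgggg

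A GC box was present in 32.7% of all promoters and 3 or more in 7.69%, and a CCAAT box in 33.8% and 2 or more in 10.1%. The forkhead element, present in 3.17% of promoters, and the E2F element in any form, present in 1.86%, had no match in the 3 windows. The other Cdkn2c window (chr4:109665373-109665622, minus strand) held none of the motifs and is not printed. The one motif searched that all 3 printed windows held was the GC box, which 7 of the 9 RefSeq windows of these genes held. Of the 10 genes, 7 had a RefSeq entry, and Ccnd1, Ccnd2 and Rb1 had none.

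In the RB family, Rb1, the main pocket protein that restrains E2F, differed in opposite directions in the 72 h pairs. It stood at 63.4 and 89.4 FPKM in the libraries labelled cKO, against 72.8 and 78.4 FPKM in the Het libraries. The Het values lay inside the range of the libraries labelled cKO, and the log2 difference was -0.01 ± 0.15, with an adjusted p of 0.988 in limma. Rbl1, which encodes p107, a pocket protein that is itself an E2F target, was at 44.8 and 54.4 FPKM in the libraries labelled cKO and 60.9 and 61.8 FPKM in the Het libraries at 72 h. At 48 h Rbl1 was at 41.4 FPKM in the library labelled cKO and 53.7 FPKM in the Het library, and Rb1 at 50.9 FPKM in the library labelled cKO and 58.3 FPKM in the Het library. Rbl1 was lower in the library labelled cKO in each pair, with log2 differences of -0.44 and -0.18 at 72 h and -0.37 at 48 h. The 48 h difference lay between those of the 72 h pairs. Over both times the log2 difference of Rbl1 was -0.33 ± 0.11, with an unadjusted p of 0.0248 and an adjusted p of 0.348 in limma. That fit treated the 48 h and 72 h libraries of the same replicate number as independent. Whether they share a source is not stated in the labels.

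The Rbl1 promoter is shown because it held the one E2F element found in the windows of these genes. The window is chr2:157204535-157204784 on the minus strand, and capitals mark TTTCGCGC, at 18 to 11 bases before the start, and a reversed GC box. That form of the element was present in 0.256% of all promoters. A match describes the letters only and does not show that a factor binds there.
Rbl1: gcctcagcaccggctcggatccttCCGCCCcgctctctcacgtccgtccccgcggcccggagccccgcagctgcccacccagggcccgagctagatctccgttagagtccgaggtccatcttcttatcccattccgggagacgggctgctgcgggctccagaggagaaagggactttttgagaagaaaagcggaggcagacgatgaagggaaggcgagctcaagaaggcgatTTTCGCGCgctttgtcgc

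Counted together, 6 of the 9 tested genes were lower in the library labelled cKO in both 72 h pairs (Ccnd3, Cdk6, Cdkn1b, Cdkn2c, Cdkn2d and Rbl1), where 24.6% of 12488 genes were. One gene, Ccnd2, was higher in both pairs, where 42.4% of genes were. At an unadjusted p under 0.05, 3 of 9 were lower (Cdkn1b, Cdkn2c and Cdkn2d), beside 6.99% of all genes, and 1 was higher (Ccnd2), beside 10.3%. No gene of the 9 and 0.0% of the 12488 genes passed an adjusted p of 0.05 in limma, with 1 residual degree of freedom, although 1286 genes were higher and 873 lower at an unadjusted p under 0.05. The median log2 difference was -0.31 over the 9 genes and 0.08 over all genes, with quartiles of -0.13 and 0.29. Of the 9 genes 8 lay below 0, beside 4869 of the 12488 genes. The 8 include Cdk4 (-0.02) and Rb1 (-0.01), which differed in opposite directions in the 2 pairs.

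With both times in one fit, the median was -0.24 for the 9 genes and 0.05 for all genes. Over both times, 2 of 9 were lower at an unadjusted p under 0.05 (Cdkn1b and Rbl1), beside 5.28% of 12394 genes, and 1 was higher (Ccnd2), beside 8.04%. None of the 9 and 0.0% of all genes passed the adjusted threshold. In total 4 of 9 were lower in the library labelled cKO in all 3 pairs (Cdk6, Cdkn1b, Cdkn2c and Rbl1), beside 14.7% of genes. The 48 h pair and a 72 h pair carry the same replicate numbers, so they may not be independent.

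**Figure D3:**
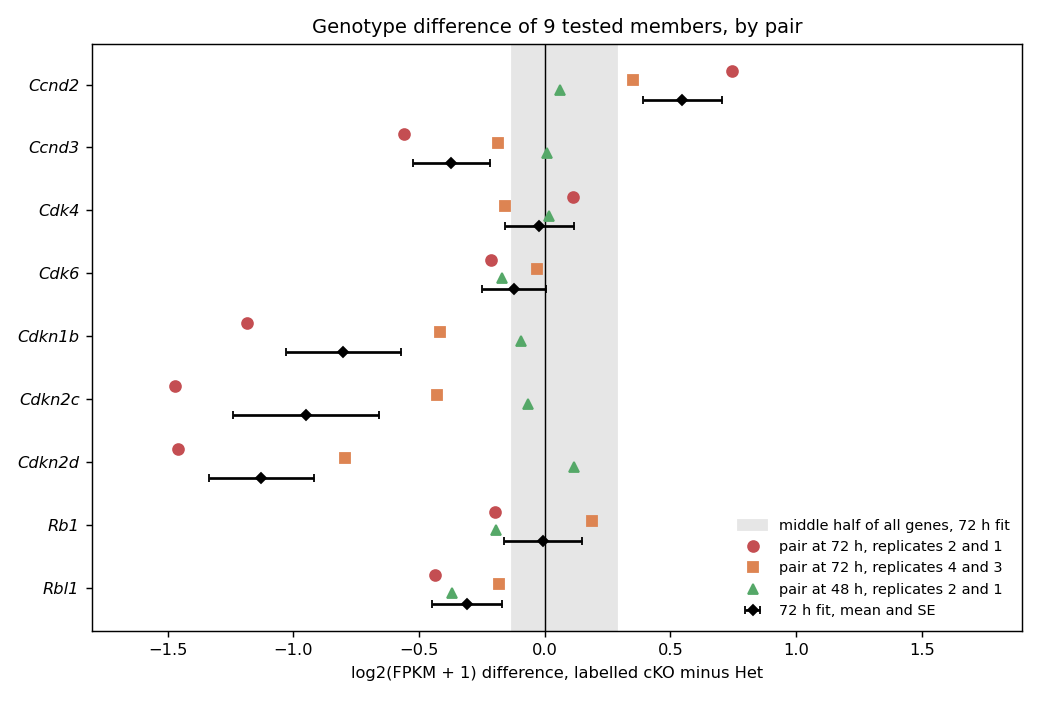
Difference in log2(FPKM + 1), labelled cKO minus Het, of the 9 tested genes in each of the 3 pairs, with the mean and SE of the 72 h fit (n = 2 libraries a genotype) and the range between the quartiles of all 12488 genes in grey. The inhibitors lie left of the grey band in both 72 h pairs and inside it at 48 h, and Ccnd2 lies to its right in both 72 h pairs.

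Between 48 h and 72 h the inhibitors differed in opposite directions in the 2 genotypes. In the libraries labelled cKO, Cdkn1b was 1.24-fold, Cdkn2c 1.495-fold and Cdkn2d 1.11-fold lower at 72 h than at 48 h. In the Het libraries of the same table they were 1.74-fold, 1.81-fold and 2.74-fold higher at 72 h. This pattern, lower at 72 h under the cKO label and higher in Het, was shown by these 3 of 9, beside 18.3% of genes. Each genotype has 1 library a time here, so the contrast describes 4 libraries.

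Among the cyclins, Ccnd2 was 1.36-fold higher at 72 h in the libraries labelled cKO and 1.18-fold lower in the Het libraries. Ccnd3 differed by 0.08 on the log2 scale in the libraries labelled cKO and by 0.65 in the Het libraries, both higher at 72 h. Cdk6 was higher at 72 h by nearly the same amount in both genotypes, 0.90 on the log2 scale in the libraries labelled cKO and 0.94 in the Het libraries. Ccnd3, Cdk6, Rb1 and Rbl1, 4 of 9, were higher at 72 h in both genotypes, beside 28.7% of genes.

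In the fit of time over all 6 libraries, Cdk6 had a log2 difference of 0.92 ± 0.12, 72 h minus 48 h, with an unadjusted p of 0.0005 and an adjusted p of 0.190 in limma. It was the 1 gene of 9 that was higher at an unadjusted p under 0.05, beside 6.45% of genes. None of the 9 passed the adjusted threshold, which 0.0242% of all genes, 3 in number, did. The median time difference was 0.24 over the 9 genes and 0.00 over all genes. All libraries at 48 h are in one table, so the time difference rests on replicates 2 and 1. The time fit, like the interaction fit below, treated the 48 h and 72 h libraries of the same replicate number as independent. With the replicate number as a block, the Cdk6 time difference was 0.92 ± 0.17, with an adjusted p of 0.323 in limma.

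The test of whether the genotype difference at 72 h differed from that at 48 h gave its largest value of the 9 genes for Cdkn2d, -1.24 ± 0.36 on the log2 scale. Its unadjusted p was 0.0284 and its adjusted p 0.828 in limma. It was the 1 gene of 9 lower at an unadjusted p under 0.05, beside 2.28% of genes, and 0.0% of genes passed the adjusted threshold. For Cdkn2c the difference of differences was -0.88 ± 0.51, for Cdkn1b -0.71 ± 0.40 and for Ccnd2 0.49 ± 0.27, each with an adjusted p of 0.856. Without 1 of the 72 h libraries these values were -1.40 to -0.36 for Cdkn2c, -1.09 to -0.32 for Cdkn1b and 0.29 to 0.68 for Ccnd2, nearer 0 without replicate 2 labelled cKO or Het replicate 1 and farther from 0 without replicate 4 labelled cKO or Het replicate 3. So the gap between 48 h and 72 h was not resolved for any of these genes, and 283 genes in all were lower and 425 higher at an unadjusted p under 0.05.

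**Figure D4:**
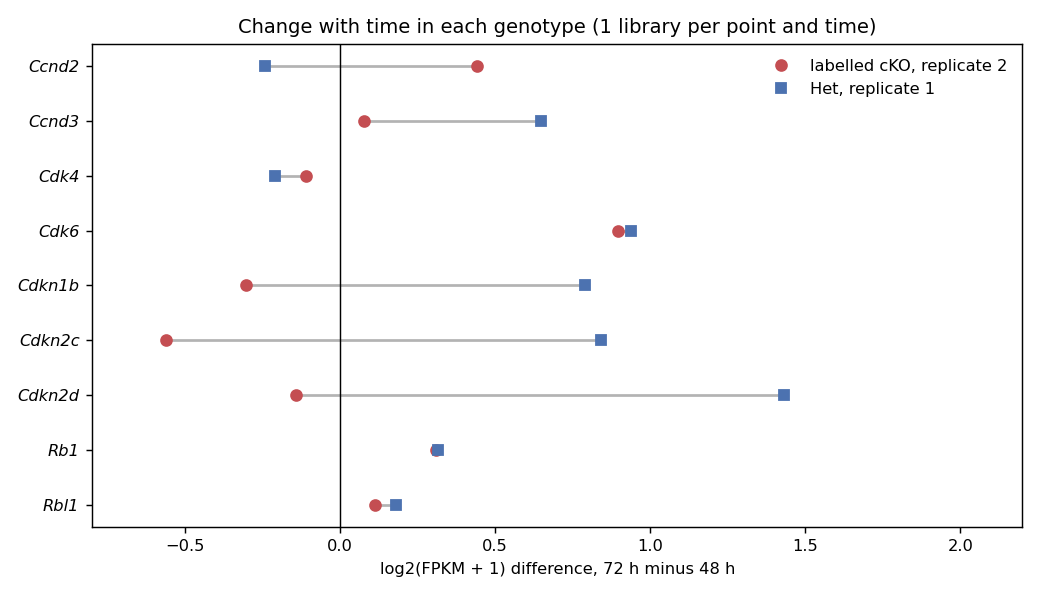
Difference in log2(FPKM + 1), 72 h minus 48 h, of the 9 tested genes in the libraries labelled cKO (replicate 2, red circles) and the Het libraries (replicate 1, blue squares), 1 library per genotype and time. For Cdkn2d the values were -0.14 in the libraries labelled cKO and 1.43 in the Het libraries, and for Cdk6 they were 0.90 in the libraries labelled cKO and 0.94 in the Het libraries.

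The order of levels among the 10 genes was not the same in the 2 genotypes at 72 h. In the libraries labelled cKO, Ccnd2 led, then Ccnd3 (328 ± 70.1 FPKM), Cdk4 (190.4 ± 55.4) and Cdk6 (134 ± 29.8). Rb1 (76.4 ± 18.4), Cdkn1b (72.3 ± 34.2), Cdkn2d, Rbl1 (49.6 ± 6.79) and Cdkn2c (41.6 ± 24.2) followed, and the values of each overlapped those of its neighbour, as did those of Cdk4 and Cdk6. In the Het libraries Ccnd3 (419.8 ± 12.8) led, then Ccnd2, Cdk4 (190.4 ± 30.7) and Cdk6 (145 ± 19.2), each above the next in both libraries. Cdkn2d and Cdkn1b (119.9 ± 13.1) came next with overlapping values, then Rb1 (75.6 ± 3.96) and Cdkn2c (74.4 ± 6.83), which overlapped too, and Rbl1 (61.4 ± 0.588). Ccnd1 was last in each library. Among the genes above 0 in a library, Ccnd2 and Ccnd3 lay between the 98.2 and 99.4 percentiles, and Cdkn2c had the widest range of the 9 tested genes, between 78.1 and 92.8.

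The patterns of single genes were compared across the 6 libraries on log2(FPKM + 1) after subtracting each table's mean, as a description, since the points share tables and time points. Cdkn1b and Cdkn2c varied nearly together (Pearson's r = 0.989, n = 6 libraries), and Cdkn2d lay closest to Ccnd3 (r = 0.965). Ccnd2 had no fellow gene that varied with it among the 9 tested genes and ran opposite to Cdkn2c (r = -0.944). Cdk6 lay closest to Rb1 (r = 0.877), Rbl1 to Cdkn1b (r = 0.844), and Cdk4 ran opposite to Rb1 (r = -0.938). The 3 genes that varied most were Cdkn2d, Cdkn2c and Cdk6, and for each the nearest of 9284 genes by Euclidean distance were found. These were Ccs (0.0963), Camkk1 (0.104) and Icosl (0.123) for Cdkn2d, S1pr4 (0.164), Ankle1 (0.201) and Gpsm2 (0.216) for Cdkn2c, and Ddx58 (0.143), Dcun1d3 (0.228) and Lpin1 (0.230) for Cdk6. Ccs, the nearest of all, stood at 60.7 and 133 FPKM in the 72 h libraries labelled cKO and 163 and 214 FPKM in the Het libraries, and at 48 h at 66.7 FPKM in the library labelled cKO and 63.3 FPKM in the Het library.

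Among 38 other genes of G1 control, 22 lay below 0 and 16 above 0 in the 72 h genotype fit, with a median of -0.03. Of all 12488 genes, 4869 lay below 0 and 7619 above 0, with a median of 0.08. None passed an adjusted p of 0.05 in limma, while 5 were lower (Ccna2, Cdk1, Cdkn1c, E2f2 and E2f8) and 3 higher (Cdc25a, Cdkn1a and Rbl2) at an unadjusted p under 0.05, beside 6.99% lower and 10.3% higher of all genes. In both 72 h pairs 10 were lower and 13 higher, beside the 24.6% and 42.4% of all genes above.

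Cdkn1a, which encodes the KIP inhibitor p21, went against the 3 inhibitors described here. It was at 271 and 201 FPKM in the 72 h libraries labelled cKO, against 134 and 74.9 FPKM in the Het libraries. At 48 h it was at 137 FPKM in the library labelled cKO and 98.2 FPKM in the Het library, so the library labelled cKO had more in all 3 pairs. Its 72 h log2 difference was 1.21 ± 0.16, with an adjusted p of 0.121 in limma. E2f2, an activating E2F factor, was at 50.7 and 91.3 FPKM in the 72 h libraries labelled cKO, against 142 and 164 FPKM in the Het libraries. Its 48 h values were 73.2 FPKM in the library labelled cKO and 77.8 FPKM in the Het library. This is the same shape as that of the inhibitors, and the 72 h log2 difference was -1.15 ± 0.20, with an adjusted p of 0.151.

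Rbl2, which encodes p130, the pocket protein of resting cells, was at 83.0 and 128 FPKM in the 72 h libraries labelled cKO, against 62.1 and 80.3 FPKM in the Het libraries. Unlike Rbl1 it was thus higher in the library labelled cKO, by 0.54 ± 0.14 on the log2 scale (adjusted p of 0.213 in limma). The S and G2 phase genes Ccna2 and Cdk1 and the repressive factor E2f8 had log2 differences of -0.56 ± 0.13, -0.50 ± 0.13 and -0.50 ± 0.12, with adjusted p-values of 0.202, 0.219 and 0.210. The 8 marker genes of S, G2 and M phase summed to 1900 and 1625 FPKM in the 72 h libraries labelled cKO, against 2480.3 and 2099.5 FPKM in the Het libraries. At 48 h that sum was 2116 FPKM in the library labelled cKO and 2460.3 FPKM in the Het library. Top2a weighed most in the 72 h gap, at 462 and 491 FPKM in the libraries labelled cKO against 880 and 807 FPKM in the Het libraries. Mki67, Ccnb1, Bub1, Pcna and Rrm2 were also lower in both 72 h pairs, but Mcm2 and Mcm5 were higher in both. Mcm2 was at 267 and 192 FPKM in the 72 h libraries labelled cKO, against 229 and 169 FPKM in the Het libraries. The part of a different mix of cycle phases in the values of the cyclins and inhibitors was not tested.

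Genes of the cyclin E step, which follows the D-type cyclins, had smaller differences. Ccne1, a cyclin E gene, was at 88.1 and 51.1 FPKM in the 72 h libraries labelled cKO, against 75.8 and 56.9 FPKM in the Het libraries. Its log2 difference was 0.03 ± 0.15, with an adjusted p of 0.928 in limma. The other cyclin E gene, Ccne2, differed by -0.21 ± 0.14, their kinase Cdk2 by -0.15 ± 0.15 and the activating factor E2f1 by -0.06 ± 0.13, with adjusted p-values of 0.491, 0.607 and 0.830. These p-values do not show that the genes were equal between genotypes.

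**Figure D5:**
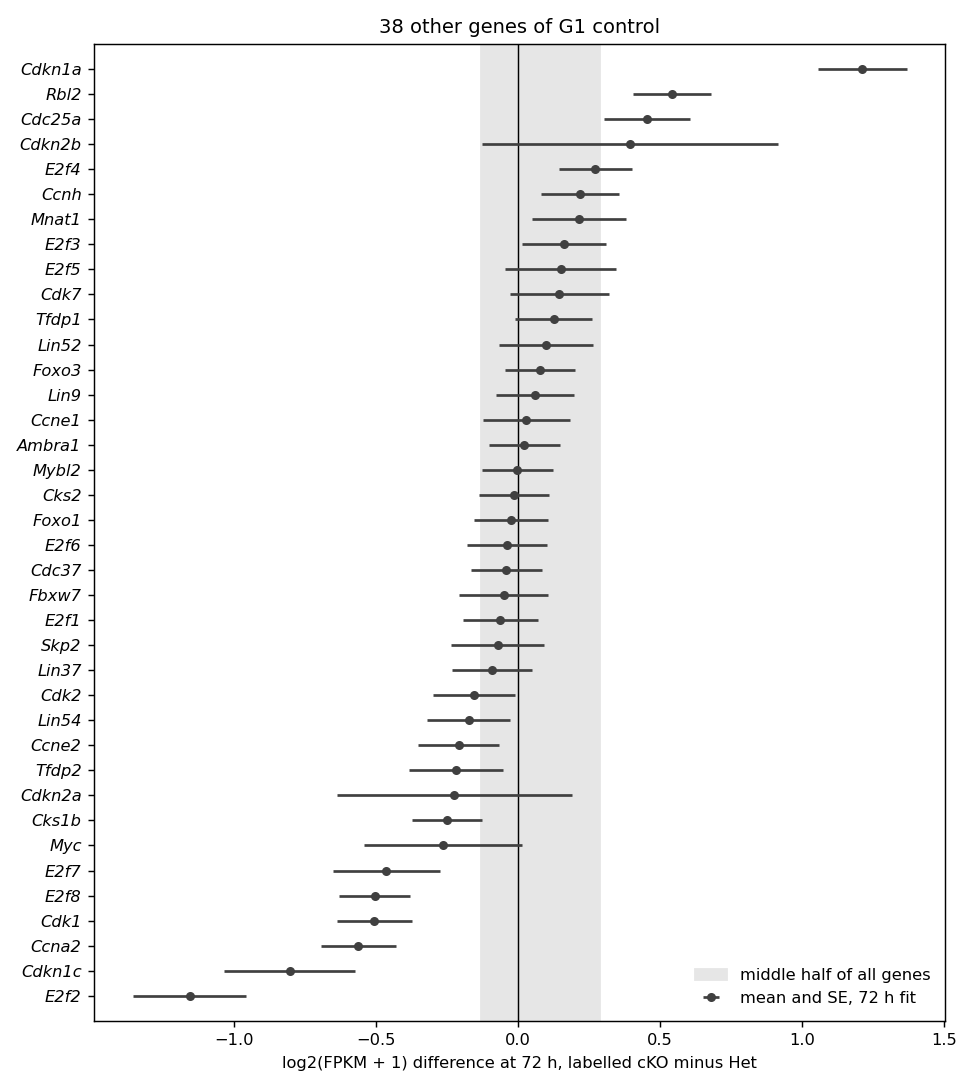
Difference in log2(FPKM + 1) at 72 h, labelled cKO minus Het, of 38 other genes of G1 control (points, mean; bars, SE; n = 2 libraries a genotype), ordered by value, with the range between the quartiles of all 12488 genes in grey. Cdkn1a is highest at 1.21 and E2f2 lowest at -1.15.

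Exons of 6 of the 10 genes share bases with an exon of another annotated gene. Besides Ccnd1, these are Ccnd2 (2 antisense genes, at most 0.635 FPKM), Ccnd3 (Bysl, 8.93 to 18.0 FPKM), Cdk4 (Tspan31, 22.8 to 33.7 FPKM), Cdk6 (Gm17590, 0.464 to 5.81 FPKM) and Rb1 (Rcbtb2, 12.01 to 25.58 FPKM, and Lpar6, 0.690 to 1.63 FPKM). All lie on the opposite strand, and with no strand setting stated their shares of the fragments are uncertain. They were low against Ccnd2, Ccnd3 and Cdk6, and the Ccnd3 pseudogene Ccnd3-ps was listed at 0.0951 FPKM at most. Tspan31 was less far below Cdk4, at 33.65 and 33.56 FPKM in the 72 h libraries labelled cKO, where Cdk4 stood at 229.5 and 151 FPKM. In the 72 h Het libraries Tspan31 was at 23.51 and 22.81 FPKM, and its part in the Cdk4 values was not tested. Rcbtb2 was not far below Rb1 either. It was at 14.31 and 21.31 FPKM in the 72 h libraries labelled cKO, where Rb1 stood at 63.4 and 89.4 FPKM. In the 72 h Het libraries Rcbtb2 was at 21.11 and 25.58 FPKM and Rb1 at 72.8 and 78.4 FPKM. The part of Rcbtb2 in the Rb1 values was not tested.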

How the data were processed

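Expression in the 6 libraries was taken from FPKM values that the authors deposited in 2 tables. The SMART-Seq v4 low input kit was used, per the labels' protocols. Per the submitters' processing notes, Bowtie2 2.2.3, TopHat2 2.0.12, HTSeq 0.6.1 and the build mm9 are named; what each did, which annotation was used and whether counting used strand is not given in the sources used here. The tables shared 47347 rows, of which 47069 carried an Ensembl ID; 46488 matched a symbol and 581 did not, and 278 rows that had no Ensembl ID were not used.

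Depth was estimated from the FPKM steps, with 86.3% to 87.1% of low values within 0.02 of a whole fragment, and served only for counting intervals. Tests used log2(FPKM + 1), a scale on which differences of low genes come out too small, for genes whose mean reached 1 FPKM. limma 3.58.1 in R 4.3.3 was used with a variance trend, a table term and Benjamini-Hochberg adjustment over all genes tested. The 72 h genotype fit used 4 libraries and the fits of both times, time and interaction all 6. The fits were also run on simulated data with independent noise of the same spread for every gene and no difference between tables. These settings differ from the data, so that run does not show how the fits behave on these libraries. Members and lists were chosen with earlier results of these data known. Named genes were the 10 members, the 6 other G1 genes with the smallest p at 72 h, Cdkn1a, Ccne1, Ccne2, Cdk2 and E2f1, and for the 3 most variable members the 3 genes of nearest pattern with a mean of at least 5 FPKM. Genes called at an unadjusted p and those of overlapping annotation were named beyond this rule. Promoters came from RefSeq (GRCm38.p6). Other steps ran in Python 3.11.15 (pandas 2.3.3, scipy 1.17.1, matplotlib 3.10.9).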

Additional observations from a re-analysis of the deposited data

Results flagged for a closer look

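Ccnd2, Cdkn1b, Cdkn2c and Cdkn2d differed in opposite directions from 48 h to 72 h in the 2 genotypes, each with 1 library per genotype and time, on the log2(FPKM + 1) scale. Ccnd2 was higher at 72 h by 0.44 in the libraries labelled cKO and differed by -0.24 in the Het libraries. Cdkn1b differed by -0.30 in the libraries labelled cKO and 0.79 in the Het libraries, Cdkn2c by -0.56 in the libraries labelled cKO and 0.84 in the Het libraries, and Cdkn2d by -0.14 in the libraries labelled cKO and 1.43 in the Het libraries. Ccnd3 and Cdkn2d had a genotype difference at 48 h of the opposite sign to both 72 h pairs. Ccnd3 differed by 0.0102, labelled cKO minus Het, at 48 h and by -0.56 and -0.18 at 72 h, but its 48 h value was -0.0217 with FPKM rescaled to TPM, the sign of the 72 h pairs. Cdkn2d differed by 0.12 at 48 h and by -1.46 and -0.79 at 72 h. The limma interaction of genotype and time tests these differences and gave an adjusted p of 0.828 for Cdkn2d and 0.856 for Ccnd2, Ccnd3, Cdkn1b and Cdkn2c, so none passed the threshold.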

How the results depend on the processing

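With 2 libraries a genotype at 72 h and 1 at 48 h, the precision of every value is limited, and no member passed an adjusted p of 0.05 under any alternative tried. The lowest adjusted p of a member over the alternatives was 0.13 for genotype at 72 h, 0.159 over both times, 0.0904 for time and 0.749 for the interaction. Of 558 member results under alternatives, 532 kept their sign and 26 changed it, 11 in fits with a test and 15 in values with none. Among those with a test were time differences when a library was left out, with ranges of -0.17 to 0.37 for Ccnd2, -0.22 to 0.71 for Cdkn1b and -0.47 to 0.75 for Cdkn2c. Cdk4 over both times ranged from -0.0705 to 0.0646 when a library was left out. In the interaction, Cdk4 gave 0.0159 under quantile normalization, and Cdk6 -0.0345 and Rbl1 -0.025 under median centring. Among values with no test, leaving out a library gave -0.16 to 0.11 for Cdk4 and -0.20 to 0.19 for Rb1 at 72 h, and in the interaction the signs of Cdk4, Cdk6, Rb1 and Rbl1 changed, with values of -0.17 to 0.10, -0.0427 to 0.14, -0.00471 to 0.38 and -0.0687 to 0.19. At 48 h, TPM rescaling gave -0.0217 for Ccnd3 and -0.0161 for Cdk4, and quantile normalization -0.0281 for Cdk4.

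Counts over all genes also moved. Genes past the adjusted threshold for genotype at 72 h numbered 8 with no filter on low values, against 0. Over both times they ranged from 0 to 7 when a library was left out, with 7 without cKO replicate 4 or Het replicate 3 at 72 h. For time, 3 genes passed, against 1 with a pseudocount of 5, 0 with no filter, 0 with no table term and 0 to 4 when a library was left out. The number of members higher in both 72 h pairs was 1, against 2 in each single pair, an alternative chosen after seeing the data. The difference in the Ccnd2 share ranged from 10.4 to 20.6 percentage points without 1 library, which sets libraries of both tables side by side. Leaving out a 72 h library leaves no residual degree of freedom in the 72 h fit, so the value is that of the other pair, and the interaction without a 48 h library could not be estimated. The replicate number as a block, possible for time only, gave 0 genes and an adjusted p of 0.323 for Cdk6, whose range over all alternatives was 0.0904 to 0.665. Numbers 1 and 2 coincide with genotype, so whether they pair the samples could not be checked. The cause of these shifts was not tested.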
